A study of Mus musculus with 21 samples.

Results

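The 47 genes described here encode the constitutive subunits of the proteasome, the factors that assemble it and the proteins that activate or inhibit it, and they were measured among 19505 genes on arrays of mouse CD8+ T cells. They are all symbols of the array that begin with *Psma*, *Psmb*, *Psmc*, *Psmd*, *Psme*, *Psmf* or *Psmg* followed by a digit. The 3 immunoproteasome genes *Psmb8*, *Psmb9* and *Psmb10* were kept apart. By role the members were 8 genes of the alpha ring and 7 of the beta ring of the 20S particle, 6 ATPases and 11 other subunits of the 19S particle, 7 assembly chaperones, and 6 activators and inhibitors. The other 2, *Psmc3ip* and *Psme3ip1*, carry the prefix because their proteins bind a proteasome protein. They were counted as members and described apart. Each member was represented by 1 transcript cluster of the array, and *Psmb5* was not analysed here.

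Spleens of wildtype mice gave the T cells, which were activated with CD3/CD28 beads and cultured in RPMI with 2-ME as fresh medium (7 arrays), in WEHI-3B conditioned medium (7 arrays) or in BMDC conditioned medium (7 arrays). The WEHI-3B line derives from a myelomonocytic leukaemia of the mouse and is here the model of acute myeloid leukaemia (AML), and BMDCs are dendritic cells (DC) grown from bone marrow. Both conditioned media were sterile-filtered supernatants of 48 h cultures, so 1 cell line stood for AML and only what passed the filter reached the T cells. The CD8+ fraction was taken out of the T cell culture by magnetic sorting after 48 h. The labels call the arrays biological replicates and do not say whether they came from separate mice, so the p-values measure the spread between these arrays.

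The proteasome is the barrel-shaped protease that degrades proteins tagged with ubiquitin. The 20S particle stacks rings of alpha subunits, which gate the entrance, around rings of beta subunits, some of which cut the substrate. The 19S particle caps the barrel, binds ubiquitin, removes it, and unfolds the substrate with a ring of ATPases. Dedicated chaperones assemble both particles, and other caps such as the PA28 complexes replace the 19S particle in part of the cell's proteasomes. Because the subunits are needed in fixed ratios, their genes are transcribed together, and the transcription factor encoded by *Nfe2l1* raises them when proteasome activity falls short. Activated T cells grow and divide fast, make large amounts of protein and depend on this turnover.

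The arrays carried the markers of CD8+ T cells. The mean log2 level of *Cd8a* and *Cd8b1* was between 11.60 and 11.80 on all 21 arrays, and that of 3 T cell genes between 11.06 and 11.39. The 1 measured gene of a list for regulatory T cells was at 8.44 to 9.46. The mean levels of marker lists for other cell types were recorded for B cells (4.42 to 5.08), NK cells (3.79 to 4.34), macrophages (3.97 to 4.30), dendritic cells (3.63 to 4.07) and reticular cells (4.38 to 4.61). No gene of any of these lists was called. A description field of the labels names reticular cells against all other fields. The mean of 3 CD4 T cell markers was 6.02 to 6.56 in fresh, 6.39 to 6.99 in AML-conditioned and 6.17 to 6.75 in DC-conditioned medium, with 1 of the 3 called, *Cd4* itself (log2 difference 0.79 between AML-conditioned and fresh medium, limma, adjusted p = 0.0150). Its part in the differences described below was not tested. In a principal component analysis of the deviations from the medium means, AML replicates 4 and 5 scored 0.55 and 0.53 on component 2, where all other arrays scored -0.32 to 0.30. In arrays of bulk RNA, fewer cells of a type and less RNA per cell cannot be told apart.

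In the fit of all arrays the proteasome genes differed little between the media. After AML-conditioned medium no member passed the test against fresh medium in the fit without covariates, and the differences ran from -0.32 for *Psma5*, an alpha ring subunit, to 0.34 for *Psme3*, the nuclear PA28 activator. The genes of the barrel and its 19S cap lay mostly just below their fresh-medium level, and those of the activators mostly just above it. DC-conditioned medium left no member and no other gene past the threshold. Of the 6 activators and inhibitors 4 lay above their fresh-medium level there as well. Between the 2 conditioned media 1 member passed, *Psmd10*, a chaperone of 19S assembly also known as gankyrin, which was 1.20-fold lower after AML-conditioned medium, at an adjusted p of 0.0487 (limma). This call was lost under 22 of 34 alternatives, 17 of them fits without 1 array. Between the same media 22 of 47 members lay below 0 in replicates 1 to 3 alone, with a median of 0.01. In replicates 4 to 7 alone 40 did, with a median of -0.15.

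The first contrast, AML-conditioned against fresh medium, shows the cells' RNA after culture in medium in which leukaemia cells had grown. In it 0 of 47 members were called with limma at an adjusted p under 0.05, against 541 of 19505 genes (2.77%). With replicates 1 to 3 against 4 to 7 as a covariate 2 members were called, *Psma5* and *Psme3*, and 1026 genes (5.26%). At an unadjusted p under 0.05 there were 8 members (17%), against 15.9% of all genes. Of these 2 were higher (all genes 7.11%) and 6 lower (all genes 8.78%). No member had groups that did not overlap, against 0.354% of genes higher and 0.441% lower. The difference was below 0 for 35 members (74.5%, all genes 54.4%), with a median of -0.06 (all genes -0.01). When each array was centred on its median, 30 members were below 0 and the median was -0.03 (all genes 0.01). The 32 genes of the 20S and 19S particles had a median of -0.08, with 27 below 0. For 46 of 47 members the 95% interval of the difference lay within 1.5-fold in either direction. *Psme3*, the exception, had an interval from 0.09 to 0.59.

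Between DC-conditioned and fresh medium limma called 0 of 47 members and 0 of 19505 genes (0%). At an unadjusted p under 0.05 the counts were 0 members and 6.41% of genes. No member had groups that did not overlap (all genes 0.0359% higher, 0.0769% lower). The members' differences ran from -0.21 for *Psmb11* to 0.15 for *Psmd6*. They were above 0 for 34 members and below 0 for 13 (27.7%, all genes 54.8%), with a median of 0.03 (all genes -0.01). The direction turned with the replicates: in replicates 1 to 3 alone 35 members were below 0, with a median of -0.06, and in replicates 4 to 7 alone 9 were, with a median of 0.08. All 47 intervals from the fit of all arrays lay within 1.5-fold.

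Between AML-conditioned and DC-conditioned medium 1 of 47 members was called (2.13%), against 466 of 19505 genes (2.39%). It was lower after AML-conditioned medium, as were 1.26% of all genes. At an unadjusted p under 0.05 there were 10 members (21.3%, all genes 14.3%), 8 lower (all genes 7.44%) and 2 higher (all genes 6.82%). No member had groups that did not overlap (all genes 0.436% higher, 0.379% lower). The difference was below 0 for 36 members (76.6%, all genes 48.1%), with a median of -0.08 (all genes 0.01). In replicates 1 to 3 alone 22 members were below 0 and in replicates 4 to 7 alone 40. For the 32 particle genes the median over all arrays was -0.10, with 29 below 0. All 47 intervals from the fit of all arrays lay within 1.5-fold. In replicates 4 to 7 alone *Psmd6* was at -0.46 (SE 0.11). This comparison shares its AML arrays with the first and its DC arrays with the second.

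**Figure D1:**
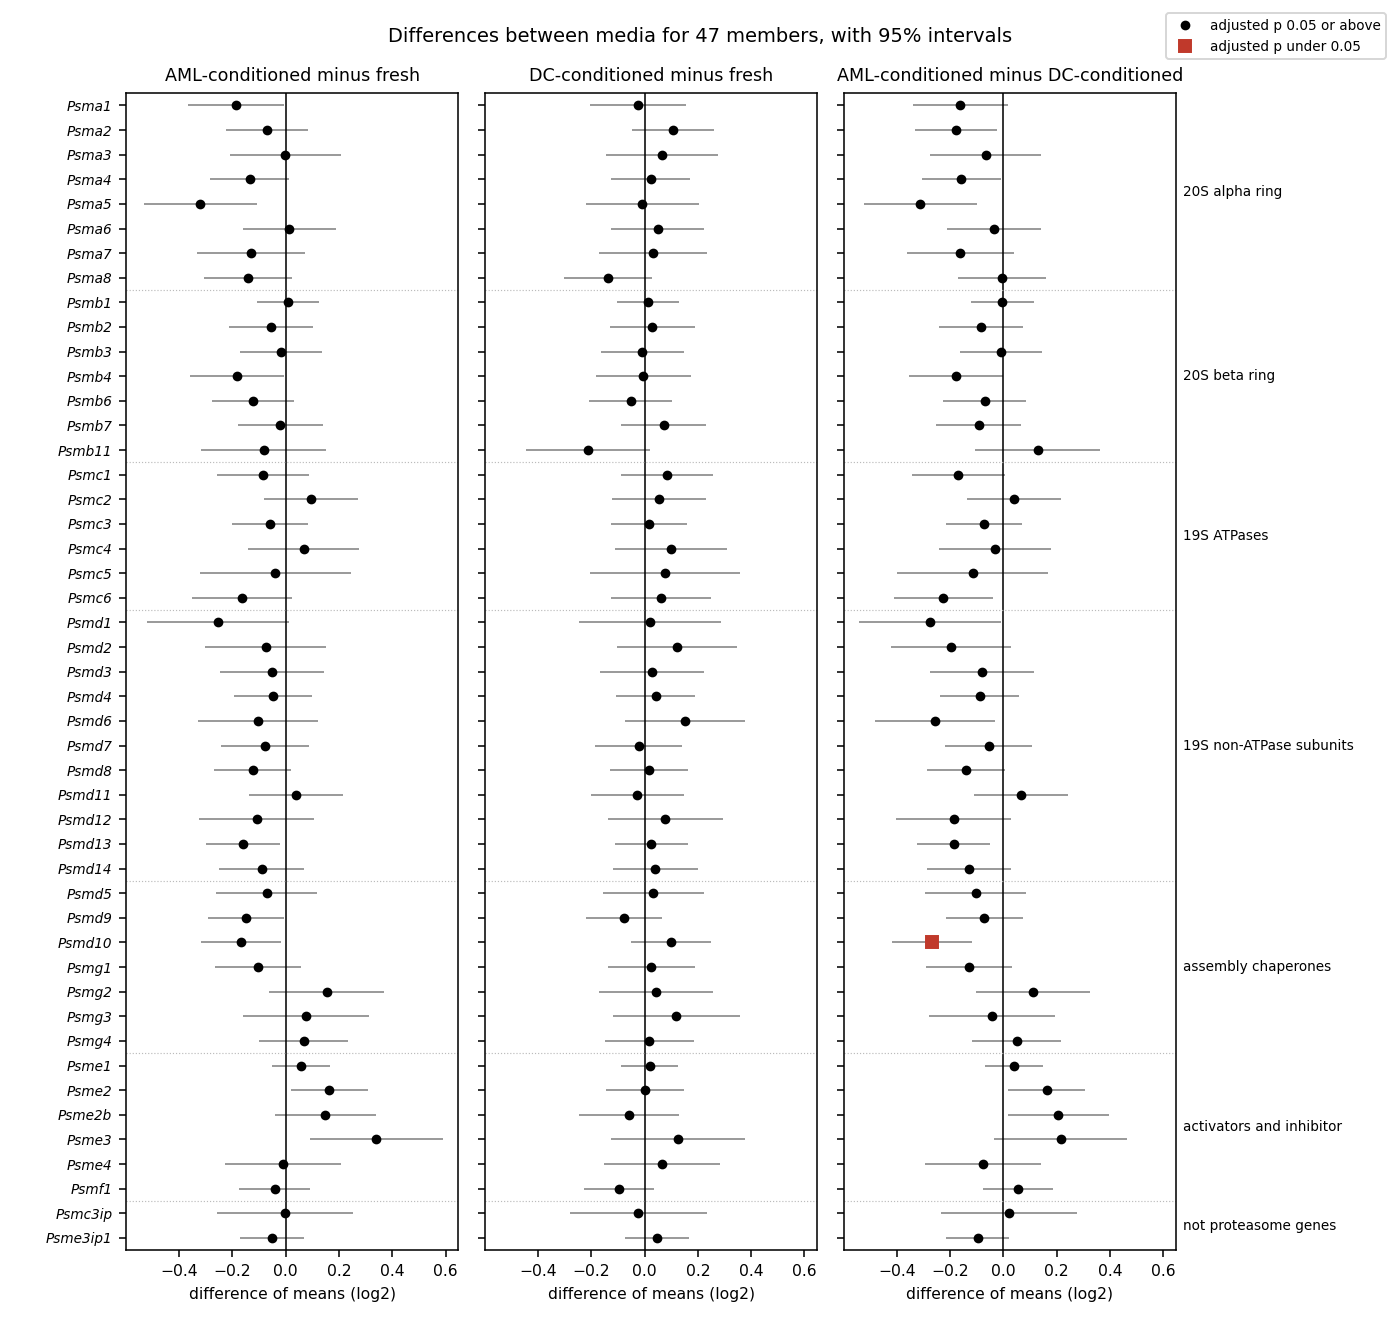
The horizontal axes give the difference of group means on the log2 scale for each of the 47 members, named on the vertical axis and ordered by role, in 3 comparisons of media with 7 arrays a group. Points are differences and lines their 95% intervals from limma; the square marks *Psmd10* at -0.27 in the right panel, the 1 member with an adjusted p under 0.05, while *Psma5* (-0.32) and *Psme3* (0.34) are the outermost points of the left panel.

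Promoters were looked up because proteasome genes are known to be controlled together. RefSeq sequences of mouse assembly GRCm38.p6 were matched for 39 of the 47 members, and the 250 bases before each start were searched on both strands for TGACNNNGC, the core of the antioxidant response element to which the factor encoded by *Nfe2l1* binds, and for CCAAT, the box bound by NF-Y. TGACNNNGC was in 4 of 39 windows (10.3%) and in 10.1% of the 27025 windows of all genes. CCAAT was in 15 of 39 (38.5%) and in 34.5% of all. The share of members with either motif was thus close to that of all genes. The 4 members with TGACNNNGC were *Psmb6*, *Psmc6*, *Psmd9* and *Psmd12*, none of which had a CCAAT in the window, and *Psmd10* had 3 of the latter. The sequences below read 5′ to 3′ on the strand of the gene, which is the plus strand for each. The first 3 show the motif with its flanks, and the last 2 are the whole windows of the members with the lowest and the highest difference between AML-conditioned and fresh medium. Capitals mark a motif match on either strand, and the *Psma5* window had none.
Psmc6 (chr14:45329574-45329630): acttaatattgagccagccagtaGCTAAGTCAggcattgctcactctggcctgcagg
Psmd12 (chr11:107479278-107479314): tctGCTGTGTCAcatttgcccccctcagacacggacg
Psmd9 (chr5:123228134-123228189): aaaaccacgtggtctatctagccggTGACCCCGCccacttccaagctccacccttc
Psma5 (chr3:108256676-108256925): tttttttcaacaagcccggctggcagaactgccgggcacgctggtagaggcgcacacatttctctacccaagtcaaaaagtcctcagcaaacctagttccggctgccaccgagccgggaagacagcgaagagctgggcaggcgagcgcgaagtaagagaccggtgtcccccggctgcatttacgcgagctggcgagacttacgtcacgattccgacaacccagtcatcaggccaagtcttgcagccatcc
Psme3 (chr11:101315963-101316212): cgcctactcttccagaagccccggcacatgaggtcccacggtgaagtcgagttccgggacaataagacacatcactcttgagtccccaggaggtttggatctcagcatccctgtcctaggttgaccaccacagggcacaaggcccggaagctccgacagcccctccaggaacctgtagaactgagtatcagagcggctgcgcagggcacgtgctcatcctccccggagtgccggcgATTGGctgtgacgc
The match lay 22 bases before the start in *Psmd9*, 218 in *Psmc6* and 238 in *Psmd12*. The windows of *Psmb6* and *Psmc6* overlapped the RefSeq span of their own gene, so the start used for them lay inside that span. In *Psmb6* the match itself began inside the span, and its sequence is therefore not printed. The *Psmd10* window overlapped the RefSeq span of another gene, *Atg4a*, and is not printed either. A match is a description of the letters and not a bound site.

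The alpha ring genes lay below 0 in 7 of 8 cases between AML-conditioned and fresh medium and in 8 of 8 between AML-conditioned and DC-conditioned medium, and none was called. Their median differences were -0.13 and -0.16, and 0.03 between DC-conditioned and fresh medium. In replicates 1 to 3 alone the last median was -0.03. Between the conditioned media 6 of 8 lay below 0 in replicates 1 to 3 alone, with a median of -0.03. In replicates 4 to 7 alone 8 of 8 did, with a median of -0.23. *Psma5*, whose product sits in the ring that gates the barrel, had log2 levels of 8.57 to 9.11 in fresh medium (median 8.91), 8.17 to 8.82 after AML-conditioned medium (median 8.52) and 8.59 to 9.06 after DC-conditioned medium (median 8.93). Of the 7 AML arrays 4 lay below every fresh array and the other 3 overlapped the fresh arrays. The difference from fresh medium was -0.32 (SE 0.10, limma, adjusted p = 0.0926) and that from DC-conditioned medium -0.31 (SE 0.10, adjusted p = 0.115). With replicates 1 to 3 against 4 to 7 as a covariate the same differences passed, at limma's adjusted p = 0.0113 and 0.0138. That fit called 5.26% and 4.09% of all genes. The first also passed without AML replicate 6, at -0.37 (adjusted p = 0.0452), and the second with array weights, also at -0.37 (adjusted p = 0.0390). Without AML replicates 4 and 5 neither passed, at -0.35 and -0.34 (adjusted p = 0.203 and 0.243).

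Among the other alpha ring genes *Psma7* differed from fresh medium by -0.13 after AML-conditioned medium (95% interval -0.33 to 0.07), and *Psma2*, which lay highest above 0 after DC-conditioned medium, by 0.11 there (SE 0.07, limma, adjusted p = 0.871). *Psma6* was the 1 alpha ring gene above 0 after AML-conditioned medium, at 0.01 (SE 0.09). *Psma8*, the alpha subunit of male germ cells, had a log2 level of 3.20 ± 0.20 (SD, n = 7) in fresh medium, 3.06 ± 0.08 after AML-conditioned and 3.07 ± 0.12 after DC-conditioned medium. It was the 1 member below the 25th percentile of mean level.

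The beta ring, which holds the sites that cut, had no called gene in any comparison. *Psmb7*, the constitutive subunit that cuts after basic residues, had a log2 level of 9.70 ± 0.08 (SD, n = 7) in fresh medium, 9.68 ± 0.11 after AML-conditioned and 9.77 ± 0.19 after DC-conditioned medium. The DC arrays spread most, and the arrays of the 3 media overlapped. *Psmb1*, a structural subunit, differed by 0.01 after either conditioned medium (SE 0.06). The lowest difference from fresh medium after AML-conditioned medium was that of *Psmb4*, another structural subunit, at -0.18 (SE 0.09, limma, adjusted p = 0.299), with AML replicate 2 lowest at 8.33 and 3 of 7 AML arrays below every fresh array. *Psmb11*, the catalytic subunit of thymic epithelium, had a log2 level of 4.46 ± 0.23 (SD, n = 7) in fresh medium and differed by -0.21 after DC-conditioned medium (SE 0.11, adjusted p = 0.810).

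The 6 ATPases of the 19S particle, which unfold the substrate and thread it into the barrel, lay on both sides of 0 after AML-conditioned medium, 4 below and 2 above, and none was called. After DC-conditioned medium all 6 lay above 0, with a median of 0.07, and 5 of 6 did after a further quantile normalization. In replicates 1 to 3 alone 4 of 6 lay below 0, with a median of -0.05, and in replicates 4 to 7 alone all 6 lay above 0, with a median of 0.14. *Psmc2* lay highest above 0 after AML-conditioned medium, at 0.10 (SE 0.09, limma, adjusted p = 0.649), and *Psmc6* lowest, at -0.16 (SE 0.09, adjusted p = 0.397). *Psmc6* also lay lowest against DC-conditioned medium, at -0.22 (SE 0.09, adjusted p = 0.228). *Psmc3* differed by -0.06 and 0.02 from fresh medium after AML-conditioned and DC-conditioned medium (SE 0.07). *Psmc4*, the ATPase to which gankyrin binds, had a log2 level of 9.25 ± 0.15 (SD, n = 7) in fresh medium, 9.32 ± 0.12 after AML-conditioned and 9.35 ± 0.28 after DC-conditioned medium. Its DC replicates 1 to 3 were at 8.97, 9.06 and 9.12, and DC replicates 4 to 7 at 9.54, 9.61, 9.58 and 9.55, so the DC arrays formed a low and a high set.

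Of the 11 other 19S subunits, which bind ubiquitin chains, remove them and hold the cap together, 10 lay below 0 after AML-conditioned medium against either other medium, with medians of -0.09 and -0.14, and none was called. Against DC-conditioned medium 7 of 11 lay below 0 in replicates 1 to 3 alone and 11 of 11 in replicates 4 to 7 alone. *Psmd1*, a large scaffold subunit, had log2 levels of 8.92 to 9.29 in fresh medium (median 9.06), 8.49 to 9.31 after AML-conditioned (median 8.88) and 8.70 to 9.48 after DC-conditioned medium (median 9.24). In 6 of 7 AML arrays it lay below every fresh array, for replicates 4 and 7 by less than the rounding, and in replicate 6 above them, and the difference was -0.25 (SE 0.13, limma, adjusted p = 0.344). *Psmd6* lay highest above 0 after DC-conditioned medium, at 0.15 (SE 0.11, adjusted p = 0.878), and at -0.26 between AML-conditioned and DC-conditioned medium (SE 0.11, adjusted p = 0.261). The latter difference was 0.01 in replicates 1 to 3 alone and -0.46 in replicates 4 to 7 alone. *Psmd11*, a subunit known to limit how much complete proteasome a cell assembles, differed by 0.04 and -0.03 from fresh medium (SE 0.09) and was the only subunit of these 11 above 0 after AML-conditioned medium.

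Among the assembly chaperones *Psmd10* was the called member. Its protein, gankyrin, holds ATPases of the 19S base until the cap is complete. Its log2 levels were 7.73 to 8.13 after AML-conditioned medium (median 7.84), 8.06 to 8.29 after DC-conditioned medium (median 8.15) and 7.88 to 8.26 in fresh medium (median 7.99). AML replicates 1 to 5 and 7 lay below every DC array, and AML replicate 6 lay among them at 8.13. The difference between AML-conditioned and DC-conditioned medium was -0.27 (SE 0.07, limma, adjusted p = 0.0487), and the interval ran from -0.42 to -0.12. Against fresh medium the differences were -0.17 after AML-conditioned medium (SE 0.07, adjusted p = 0.247) and 0.10 after DC-conditioned medium (SE 0.07, adjusted p = 0.879). The call was at the edge of the threshold and ended under 22 of 34 alternatives, at differences of -0.31 to -0.24. Among these were leaving out any 1 of the 7 DC arrays, any 1 of AML replicates 1 to 5 or any 1 of fresh replicates 2 to 6 (adjusted p = 0.0523 to 0.129), and leaving out AML replicates 4 and 5 (adjusted p = 0.255). Each array centred on its median gave an adjusted p of 0.0632, the 2 groups alone 0.0669, replicates 1 to 3 alone 0.196 and replicates 4 to 7 alone 0.263.

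The other chaperones were not called. *Psmd9*, which also serves 19S assembly, differed by -0.15 after AML-conditioned medium (SE 0.07, limma, adjusted p = 0.296). *Psmg1* and *Psmg2*, whose proteins pair to start the alpha ring, differed by -0.10 (SE 0.08) and 0.15 (SE 0.10) in the same comparison, in opposite directions and with intervals that both include 0. *Psmg1* was at -0.28 in replicates 1 to 3 alone and at 0.03 in replicates 4 to 7 alone. *Psmg3*, part of the second pair of alpha ring chaperones, had a low log2 level of 4.54 ± 0.24 (SD, n = 7) in fresh medium. It differed from that by 0.08 and 0.12 after AML-conditioned and DC-conditioned medium (SE 0.11). Of the 7 chaperones 4 lay below 0 after AML-conditioned medium and 1 after DC-conditioned medium. In replicates 1 to 3 alone 5 of 7 lay below 0 after DC-conditioned medium.

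The activators and inhibitors lay mostly above 0 after AML-conditioned medium, 4 of 6 against fresh and 5 of 6 against DC-conditioned medium, with medians of 0.10 and 0.11, and none was called. With centred arrays the counts were 5 and 5, and with a further quantile normalization 4 and 5. Between DC-conditioned and fresh medium 4 of 6 also lay above 0, with a median of 0.01. In replicates 4 to 7 alone 2 of 6 did. *Psme3*, which encodes the gamma subunit of PA28, an activator of the nucleus that works without ubiquitin, had log2 levels of 9.67 to 10.13 in fresh medium (median 9.87), 10.04 to 10.57 after AML-conditioned (median 10.18) and 9.71 to 10.40 after DC-conditioned medium (median 10.18). AML replicates 4 and 5 were the highest arrays, at 10.54 and 10.57, 4 of 7 AML arrays lay above every fresh array, and DC replicates 1 to 3 were all below DC replicates 4 to 7. The difference between AML-conditioned and fresh medium was 0.34 (SE 0.12, limma, adjusted p = 0.139), and it was 0.22 without AML replicates 4 and 5 (adjusted p = 0.565). With replicates 1 to 3 against 4 to 7 as a covariate the 0.34 passed (adjusted p = 0.0302).

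*Psme1* and *Psme2*, the alpha and beta subunits of the PA28 that interferon induces together with the immunoproteasome, differed from fresh medium by 0.06 (SE 0.05, limma, adjusted p = 0.653) and 0.16 (SE 0.07, adjusted p = 0.242) after AML-conditioned medium, and by 0.02 and 0.00 after DC-conditioned medium. For *Psme2* 4 of 7 AML arrays lay above all fresh arrays, and the difference was 0.08 without AML replicates 4 and 5. *Psme2b*, a close copy of *Psme2*, had log2 levels of 9.40 to 9.92 in fresh medium (median 9.69), 9.65 to 9.94 after AML-conditioned (median 9.83) and 9.39 to 9.89 after DC-conditioned medium (median 9.51). Whether the probes tell *Psme2* and *Psme2b* apart was not tested. *Psme4*, which encodes the PA200 activator, differed by -0.01 and 0.07 (SE 0.11), and *Psmf1*, which encodes the inhibitor PI31, by -0.04 and -0.10 (SE 0.06) after AML-conditioned and DC-conditioned medium.

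*Psmc3ip*, a cofactor of meiotic recombination, and *Psme3ip1*, a partner of the nuclear PA28, differed from fresh medium by -0.00 (SE 0.12) and -0.05 (SE 0.06) after AML-conditioned medium and by -0.02 and 0.05 after DC-conditioned medium.

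**Figure D2:**
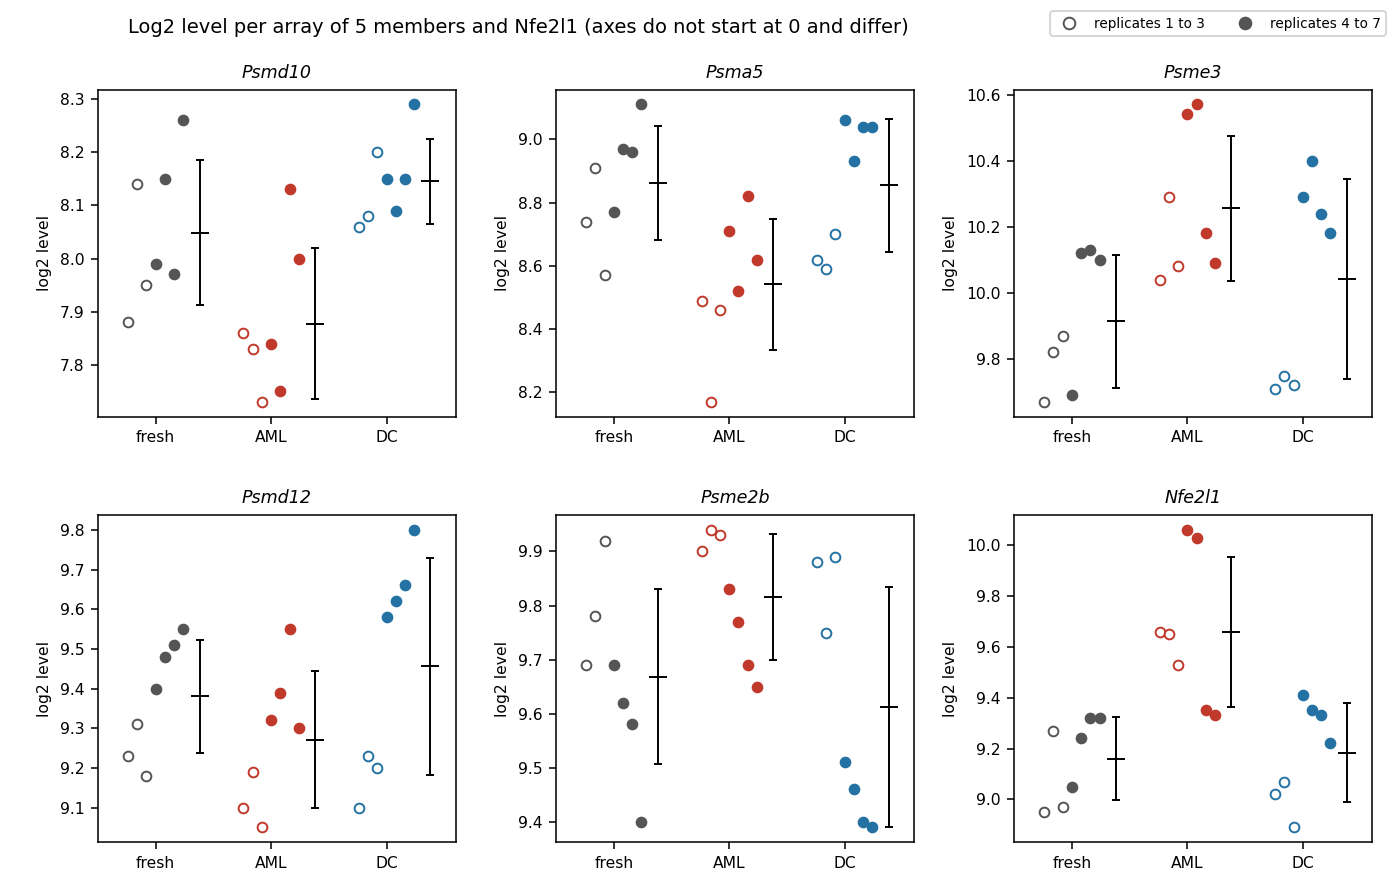
Vertical axes give the log2 level and the groups of 7 arrays stand along the horizontal axis, for *Psmd10*, *Psma5*, *Psme3*, *Psmd12*, *Psme2b* and the transcription factor gene *Nfe2l1*. Open points are replicates 1 to 3 and filled points replicates 4 to 7, with the mean and SD of the group beside them; all 7 AML arrays of *Nfe2l1* (9.33 to 10.06) lie above the fresh arrays (8.95 to 9.32), while the arrays of the 5 members overlap between media.

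Of the genes around the proteasome, *Nfe2l1* was the 1 that passed among 28 measured, between AML-conditioned medium and either other medium. That is 3.57% of these genes in each comparison, near the 2.77% and 2.39% of all genes. Its product is a membrane-bound transcription factor that is released and activated when the proteasome is overloaded. Its log2 levels were 8.95 to 9.32 in fresh medium (median 9.24), 9.33 to 10.06 after AML-conditioned (median 9.65) and 8.89 to 9.41 after DC-conditioned medium (median 9.22). All AML arrays lay above all fresh arrays, as for 0.354% of all genes, and 5 of 7 lay above all DC arrays. The lowest AML array was at 9.331 and the highest fresh array at 9.324, so the margin was narrow. AML replicates 4 and 5 were highest at 10.06 and 10.03, and AML replicates 6 and 7 lowest at 9.35 and 9.33. *Nfe2l1* rose by 0.50 against fresh medium (SE 0.11, limma, adjusted p = 0.0168) and by 0.47 against DC-conditioned medium (SE 0.11, adjusted p = 0.0234), and differed by 0.03 between DC-conditioned and fresh medium (SE 0.11, adjusted p = 0.986). The rise against fresh medium was no longer called without AML replicates 4 and 5 (0.34, adjusted p = 0.140), without AML replicate 5 (0.44, adjusted p = 0.0519) or in replicates 4 to 7 alone (0.46, adjusted p = 0.188). Against DC-conditioned medium it was no longer called without AML replicates 4 and 5 (0.32, adjusted p = 0.198), without AML replicate 4 (0.41, adjusted p = 0.0672), AML replicate 5 (0.41, adjusted p = 0.0694) or DC replicate 3 (0.42, adjusted p = 0.0546), with the 2 groups alone (0.47, adjusted p = 0.0575) or in replicates 4 to 7 alone (0.36, adjusted p = 0.259).

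The 5 other measured genes of proteasome transcription were not called. At an unadjusted p under 0.05 their list, with *Nfe2l1*, had 2 genes higher and 1 lower between AML-conditioned and fresh medium (all genes 7.11% and 8.78%). Between AML-conditioned and DC-conditioned medium it had 1 higher and 1 lower (all genes 6.82% and 7.44%). None of the 3 immunoproteasome genes, whose catalytic subunits replace constitutive ones in lymphocytes, was called. *Psmb8* was at 10.41 to 10.73 in fresh medium (median 10.66), at 10.41 to 10.77 after AML-conditioned (median 10.66) and at 10.50 to 10.85 after DC-conditioned medium (median 10.70). *Psmb9* differed by 0.02 and -0.00 from fresh medium (SE 0.06), and *Psmb10* by -0.12 and 0.00 (SE 0.08). None of these differences passed the test, and all their intervals lay within -0.28 and 0.17. Of 12 measured genes for other subunits and associated proteins and of 6 for the unfolding ATPase p97 and its cofactors 0 were called with limma in the 3 comparisons. At an unadjusted p under 0.05 each of the 2 lists had 2 results over the 3 comparisons, in which 15.9%, 6.41% and 14.3% of all genes reached that p. *Pomp*, the chaperone of beta ring maturation, differed by -0.03 and 0.00 (SE 0.06), and *Zfand5*, a proteasome-binding activator, by 0.15 and 0.05 (SE 0.07) after AML-conditioned and DC-conditioned medium. *Nploc4*, a p97 cofactor, lay at 0.12 against fresh medium (SE 0.06, adjusted p = 0.405). *Uba6*, an enzyme that activates ubiquitin and the 1 measured gene of 6 in its list, lay at 0.13 (SE 0.10, adjusted p = 0.582).

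The subunit genes varied together from array to array within a medium. After the mean of each medium was subtracted, the correlation between 2 particle genes over the 21 arrays was on average 0.57 (496 pairs), against 0.0029 for all genes. It was 0.69 among the ATPases, 0.64 among the other 19S subunits, 0.57 in the alpha ring and 0.34 in the beta ring. Among the chaperones it was 0.17 and among activators and inhibitors 0.05. These values are descriptions: the genes share arrays, normalization and replicates. Against the mean of the other members, 29 of the 32 particle genes had a correlation above 0.5. *Psmd12*, a 19S lid subunit, followed the others most closely, with 0.95, and *Psma7* with 0.94. *Psme2b* ran opposite to them, with -0.91, and *Psme2* (-0.34), *Psmb11* (-0.32), *Psmf1* (-0.32), *Psme1* (-0.18) and *Psmg3* (-0.13) were also below 0. *Psme3* (0.76) and *Psme4* (0.58) were the activators that went with the subunits.

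**Figure D3:**
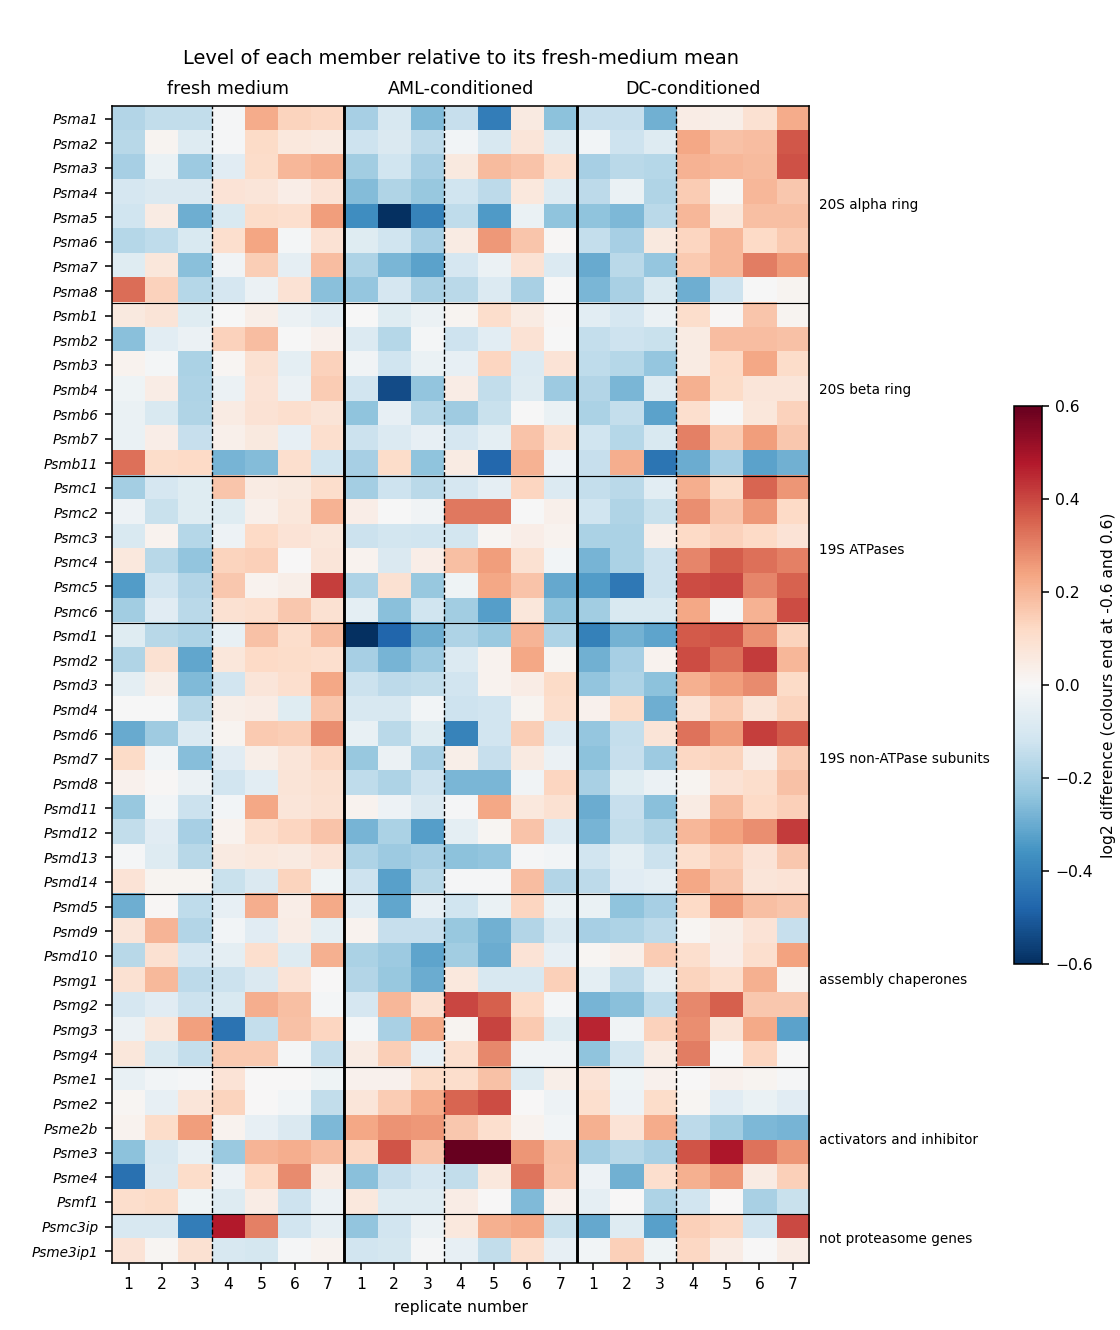
Each row is a member and each column an array, ordered by medium and replicate number; colour gives the log2 level minus the gene's mean in fresh medium and saturates at -0.6 and 0.6. Dashed lines separate replicates 1 to 3 from 4 to 7: most rows of the 20S and 19S particles are blue on the left and red on the right of the dashed line in DC-conditioned medium, where 41 of 47 members were higher in replicates 4 to 7.

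Much of this common variation followed the replicate number. Replicates 1 to 3 and 4 to 7 formed separate sets, a split already known from earlier results of these data; the labels do not say what separates them. In replicates 4 to 7 the level was higher than in replicates 1 to 3 for 35 of 47 members in fresh, 42 in AML-conditioned and 41 in DC-conditioned medium, against 45.7%, 49.9% and 45.2% of all genes. The median shift was 0.14, 0.12 and 0.29, against -0.02, -0.0003 and -0.02 over all genes. In all 3 media 25 of the 32 particle genes were higher in replicates 4 to 7, and none was lower in all 3. *Psmd12* was at 9.18 to 9.31 in fresh replicates 1 to 3 and at 9.40 to 9.55 in 4 to 7, at 9.05 to 9.19 and 9.30 to 9.55 in the AML arrays, and at 9.10 to 9.23 and 9.58 to 9.80 in the DC arrays. Within each medium its 2 sets did not overlap. *Psme2b* went the other way, at 9.75 to 9.89 in DC replicates 1 to 3 and 9.39 to 9.51 in DC replicates 4 to 7, and at 9.90 to 9.94 and 9.65 to 9.83 in the AML arrays. With the means of medium and set subtracted, the average correlation between 2 particle genes was 0.16.

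The mean of the particle genes relative to fresh medium was -0.08 in fresh replicates 1 to 3 and 0.06 in 4 to 7, -0.16 and -0.03 in the AML arrays, and -0.16 and 0.16 in the DC arrays. Over all 7 arrays it was 0.00 ± 0.09 (SD, n = 7), -0.08 ± 0.09 and 0.03 ± 0.17 in the order fresh, AML-conditioned and DC-conditioned. The 3 ranges overlapped, from -0.15 to 0.11, from -0.16 to 0.07 and from -0.19 to 0.18. The mean of the 6 activators and inhibitors was 0.00 ± 0.06, 0.11 ± 0.07 and 0.01 ± 0.05, with AML replicates 4 and 5 at the top of the AML range of 0.04 to 0.23.

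**Figure D4:**
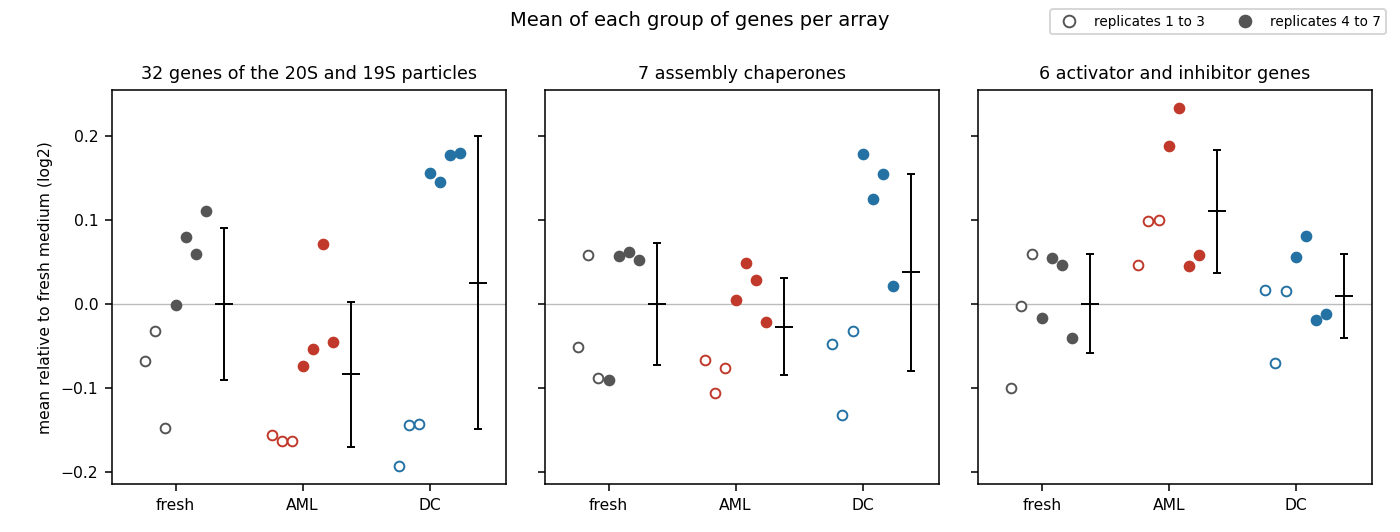
The vertical axis gives the mean log2 level of a group of genes on each array minus its average in fresh medium, for 32 genes of the 20S and 19S particles, 7 assembly chaperones and 6 activators and inhibitors. Open points are replicates 1 to 3, filled points replicates 4 to 7, and bars the mean and SD of 7 arrays; the DC arrays of the left panel form a low set (-0.19 to -0.14) and a high set (0.15 to 0.18), and the AML mean of the right panel is 0.11.

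The media were also compared within each set. In replicates 1 to 3 alone the median difference over the members was -0.04 between AML-conditioned and fresh medium, -0.06 between DC-conditioned and fresh medium and 0.01 between the conditioned media. In replicates 4 to 7 alone these medians were -0.06, 0.08 and -0.15. No member was called with limma in replicates 1 to 3 (all genes 1.92%, 0% and 1.63% in the same order) or in replicates 4 to 7 (all genes 0.164%, 0% and 0.22%). At an unadjusted p under 0.05, 23 of 47 members differed between the conditioned media in replicates 4 to 7, against 16.2% of all genes. In replicates 1 to 3 there were 4 such members, against 12.4% of all genes. The difference between the sets was tested for each gene as an interaction of medium and set, and 0 members were called in the 3 comparisons, against 1 (0.00513%), 0 (0%) and 1 (0.00513%) of 19505 genes. At an unadjusted p under 0.05 the interaction gave 3 members for AML-conditioned against fresh medium (all genes 11.2%), 7 for DC-conditioned against fresh medium (all genes 7.62%) and 6 between the conditioned media (all genes 9.34%). The lowest adjusted p of a member was 0.344, for *Psmc4*, whose difference between AML-conditioned and DC-conditioned medium in replicates 4 to 7, minus that in replicates 1 to 3, was -0.39.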

How the data were processed

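Per the submitters' processing notes, the authors normalized the arrays with RMA in the R package oligo, versions not given, and deposited log2 values for 22203 transcript clusters. RMA corrects background and equalizes the distributions of arrays, so a shift of all genes cannot be seen and low values are compressed. Of the clusters 19572 had 1 symbol and 2631 none; of several clusters of a symbol the one with the highest mean was kept, which gave 19505 genes. No filter was applied. Differences were fitted with limma 3.58.1 in R 4.3.3 (lmFit, eBayes, 3 groups of 7 arrays in 1 fit, no covariates), two-sided, with Benjamini-Hochberg adjustment over all genes of a comparison and calls at an adjusted p under 0.05. The script was tested on simulated data. Members, gene lists and tests were chosen with earlier results of these data known. Genes were named by a rule: called members, the largest rise and fall of each role and comparison, and 10 fixed names, with the companion genes picked in a like way. *Psmd12*, *Psme2b*, *Psmb6* and, in the closing section, *Uchl5*, *Usp14* and *Vcp* were named after their values were seen. Each comparison was refitted under 34 alternatives. The interaction of medium and replicate set was added after seeing the data. Precision was limited by the number of arrays, with a median standard error of 0.085 for a member's difference and 0.0937 for all genes. These standard errors are from the fit without covariates, so they include the spread between replicates 1 to 3 and 4 to 7.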

Additional observations from a re-analysis of the deposited data

Results flagged for a closer look

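Among the 111 groups of 7 arrays formed by 36 named genes and by the mean over all members in the 3 media, 6 had a highest or lowest array whose gap to its nearest neighbour took up more of the group's range than Dixon's limit for 7 values allows. Chance alone flags about 1 in 20 such groups. In fresh medium *Psme1* was highest in replicate 4 at 11.95 (nearest 11.87), *Psmb8* was lowest in the same array at 10.41 (nearest 10.63), and *Uba6* was lowest in replicate 1 at 7.76 (nearest 8.25). In AML replicate 6 *Psmf1* was lowest at 9.99 (nearest 10.18) and *Uba6* highest at 8.74 (nearest 8.50). *Nploc4* was lowest in DC replicate 3 at 9.59 (nearest 9.79). No gene with such an array was called in any of the 3 comparisons.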

How the results depend on the processing

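Under the 34 alternatives the count of called members stayed between 0 and 2 in every comparison. Between AML-conditioned and fresh medium it was 2 (*Psma5*, *Psme3*) with a replicate block for the number 1 to 7 and 2 with replicates 1 to 3 against 4 to 7 as a covariate, and 0 to 1 when 1 array was left out. Between the conditioned media it was 2 (*Psma5*, *Psmd10*) with the replicate block, with the set covariate and with array weights. It was 0 with arrays centred on their median, with only the 2 groups compared, in replicates 1 to 3 alone, in replicates 4 to 7 alone and without AML replicates 4 and 5, and 0 to 1 when 1 array was left out. With the block the adjusted p was 0.0222 and 0.0265 for *Psma5* and 0.0396 for *Psme3*. The numbers do not clearly pair the arrays: the correlation of same-numbered arrays was above 0.1 in 13 of 21 pairs (range -0.11 to 0.36), and 7 of 21 arrays correlated best with their own number. Over all genes the calls between AML-conditioned and fresh medium numbered 541, against 1012 with the block, 1026 with the set covariate and 111 without AML replicates 4 and 5. The causes of these changes were not tested. The members' median ran from -0.08 to -0.03 for AML-conditioned against fresh medium, from -0.06 to 0.08 for DC-conditioned against fresh medium and from -0.15 to 0.01 between the conditioned media, where the ends of the last 2 came from the replicate sets alone. Further limits are that RMA values give no detection call, that 1 cluster stands for each gene, and that RNA levels do not give proteasome amount or activity.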

Other observations

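*Uchl5* and *Usp14*, which encode the ubiquitin-removing enzymes that dock on the 19S particle, and *Vcp*, which encodes p97, were named here after their values were seen. *Usp14* was at 5.77 to 6.84 in fresh medium (median 6.58), 6.51 to 6.97 after AML-conditioned (median 6.64) and 6.41 to 7.01 after DC-conditioned medium (median 6.85), with a difference of 0.34 between DC-conditioned and fresh medium (SE 0.12, limma, adjusted p = 0.705). *Vcp* was at 8.04 to 9.39, 8.90 to 9.39 and 8.89 to 9.64, with a difference of 0.36 in the same comparison (SE 0.15, adjusted p = 0.744). Fresh replicate 1 was the lowest fresh array of both, for *Usp14* at 5.77 (nearest 6.36) and for *Vcp* at 8.04 (nearest 8.91). Neither gene was in the check of highest and lowest arrays above. *Uchl5* differed by -0.32 between AML-conditioned and DC-conditioned medium (SE 0.16, adjusted p = 0.358). The arrays of the 3 media overlapped for each of them.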
